A study of Mus musculus with 21 samples.

Results

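The 8 genes described here, Rsad2, Ifi35, Irf7, Isg15, Ifit1, Ifit3, Oasl2 and Bst2, are induced by interferon in many mouse tissues, and all 8 were found among the 32643 genes of the deposited table by their symbol. Rsad2 and Ifi35 were picked from results of these same data, and the comparison that picked them is not recorded, so their levels and fold changes are given as descriptions with no test. The other 6 genes were listed by name as interferon-induced genes and were tested. They and the lists of pathway genes described further on were chosen with earlier results of these data known. Their p-values and shares are therefore not free of that choice. The RNA came from whole testes of 21 individual mice at postnatal day 10, labelled as a 50% 129sv and 50% C57Bl6 strain mix in both genotypes. Wild-type (WT) mice and FXR knockout (KO) mice, which lack the bile acid receptor FXRα encoded by Nr1h4, each had a vehicle group, a bisphenol-A group (BPA, a building block of polycarbonate plastics that weakly activates estrogen receptors) and a group given stigmasterol, a sterol of plants. Each WT group held 4 mice and each KO group 3. The sources used here give no doses, routes or litters and do not say how the knockout allele was made.

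Interferons are secreted proteins that signal through paired receptors and Janus kinases to transcription factors that bind a short promoter element, the interferon-stimulated response element. The genes switched on in this way include enzymes that block viral RNA and DNA synthesis, proteins that hold virus particles at the cell surface, and factors such as IRF7 that amplify the response. Testicular macrophages, Sertoli cells and Leydig cells can all mount this response, and without infection a low constant level of it is usual in tissues.

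The upstream stretches below are shown because they hold the element through which these genes are known to answer interferon. In the RefSeq promoter windows (GRCm38.p6, 250 bases before to 50 bases after the start of the gene), all 8 genes had a window, and the motif GAAANNGAAA or its other-strand form TTTCNNTTTC was present in 5 of the 8. Either form, overlapping matches allowed, occurred in 3.44% of all 32851 windows of the same length. Counted by gene, 1079 of 27025 genes with a window held it (3.99%). Of the 95 genes of the interferon pathway lists described further on that had a window, 34 held it (35.8%). Capitals mark the motif, with 20 bases on each side, and each sequence is written 5′ to 3′ on the strand of its gene.
Rsad2 (chr12:26456543-26456592, minus strand): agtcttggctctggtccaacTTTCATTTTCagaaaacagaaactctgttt
Isg15 (chr4:156200855-156200916, minus strand): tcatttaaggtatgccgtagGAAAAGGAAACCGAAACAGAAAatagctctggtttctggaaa
Ifit1 (chr19:34640765-34640833, plus strand): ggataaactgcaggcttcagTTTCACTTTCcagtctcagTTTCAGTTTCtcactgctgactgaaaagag
Ifit3 (chr19:34583353-34583436, plus strand): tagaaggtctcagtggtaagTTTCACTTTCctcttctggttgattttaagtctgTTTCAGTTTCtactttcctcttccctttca
Bst2 (chr8:71537567-71537622, minus strand): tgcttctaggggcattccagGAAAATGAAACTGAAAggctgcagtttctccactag
The Isg15 stretch held 3 overlapping matches, and those of Ifit1, Ifit3 and Bst2 held 2 each. The single Rsad2 match began at position -120 from the start of the gene. These letters were not in the windows of Ifi35, Irf7 and Oasl2. A match is a stretch of letters, and binding was not measured here.

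The libraries held 35459523 to 61498855 counts, and 20254 genes had enough reads to be tested, all 8 genes among them. Nr1h4 had 11 to 40 reads per WT library and 7 to 22 per KO library, with a log2 fold change of -0.78 ± 0.229 (SE, edgeR quasi-likelihood test, adjusted p = 0.0303) averaged over treatments. Reads are counted over the whole gene, so they do not show whether the deleted part was absent. Each of the Sertoli, Leydig and germ cell markers that define the testis had reads in both genotypes. Cdh16, a cadherin of the epithelium of epididymis and kidney, was at or above 10 counts-per-million (CPM) in 6 of 9 KO and 3 of 12 WT libraries. Alb, the main liver plasma protein, was so in 3 libraries (WT BPA animals T75 and T61, KO BPA animal T25). For the calls named below that were lost without these libraries, the value without them stands beside the call. The calls of Ikbke and Tapbp under stigmasterol are counted below but not described.

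By the authors' signal per kb of gene length, the scale on which genes can be compared, Bst2 had the highest mean level over the 21 animals (1596), above 76.9% of tested genes. Oasl2 followed at 1134, Ifi35 at 522 and Irf7 at 350. Isg15 averaged 59.5, Ifit3 15.2, Rsad2 12.3 and Ifit1 6.38, and only 4.99% of tested genes had a lower level than Ifit1. Each of the first 5 genes in this order was higher than the next in 21 of 21 animals. Ifit3 was above Rsad2 in 14 of 21 animals, and Rsad2 was above Ifit1 in 20 of 21. The order of Ifit3 and Rsad2 differed by genotype. Every KO animal had more Ifit3 (mean 15.1 ± 2.68, SD) than Rsad2 (7.5 ± 1.55). WT animals were mixed (15.2 ± 6.39 and 16.0 ± 4.63). The classical virus-induced genes Rsad2, Isg15, Ifit1 and Ifit3 thus had few reads, 8 to 106 per library.

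**Figure D1:**
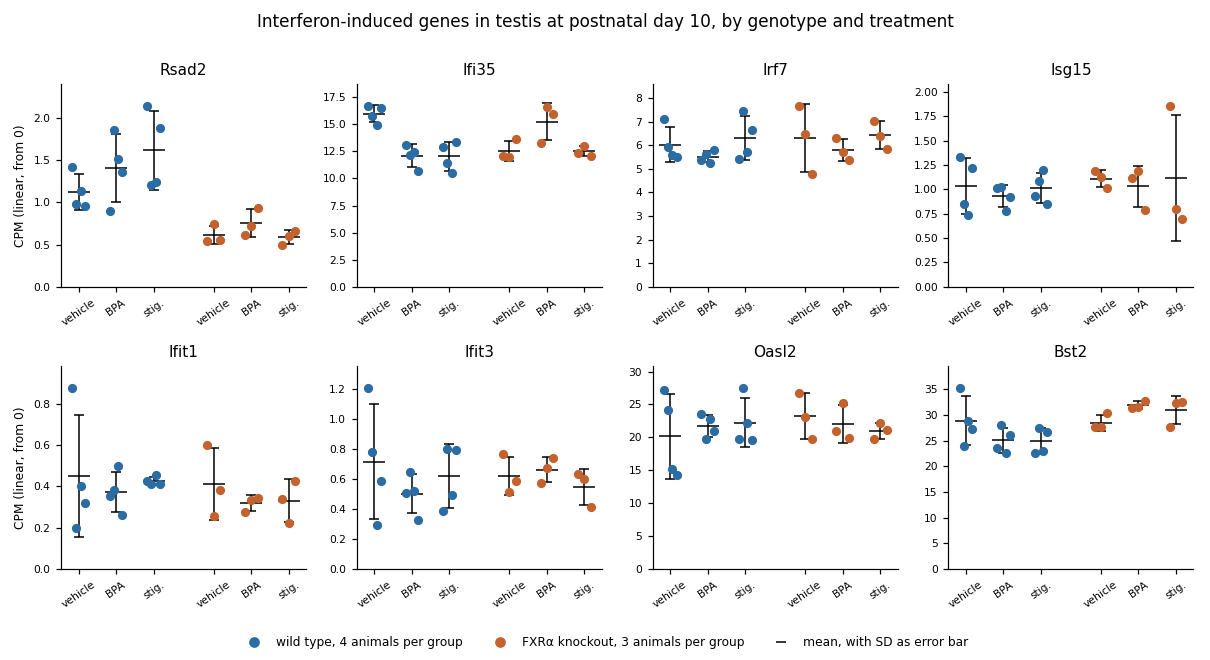
Level of each of the 8 genes in CPM (linear axis from 0) for every animal, by genotype and treatment. Points are animals and the black bars are the group mean with its SD. The KO animals are low for Rsad2 (0.499 to 0.935 CPM against 0.899 to 2.15 in WT), the WT vehicle animals are high for Ifi35, and the groups overlap in most other panels.

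Rsad2 encodes viperin, a radical SAM enzyme that makes a chain-terminating nucleotide against viral RNA synthesis. The gene (ENSMUSG00000020641, chromosome 12, 26442753 to 26456452, mm10) was lower in KO than in WT testes. WT vehicle animal T66 had 1.43, T71 0.977, T79 1.14 and T81 0.958 CPM. WT BPA animal T60 had 0.899, T75 1.86, T61 1.52 and T74 1.36 CPM. Each of these values rests on 36 to 78 reads. WT stigmasterol animal T78 had 2.15, T98 1.21, T118 1.24 and T119 1.88 CPM. The 3 WT groups overlapped.

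With vehicle, KO animal T1 had 0.542, T90 had 0.741 and T110 had 0.558 CPM of Rsad2. With BPA, T25 had 0.617, T83 had 0.715 and T117 had 0.935 CPM. With stigmasterol, T10 had 0.499, T15 had 0.596 and T93 had 0.667 CPM. In all, 8 of the 9 KO animals were below every WT animal. The exception was KO BPA animal T117, which was above WT BPA animal T60, so the genotypes overlapped under BPA and not in vehicle or under stigmasterol, where 16.3% and 17% of all tested genes did not overlap. The log2 fold change, KO against WT, was -0.87 in vehicle, -0.90 under BPA, -1.45 under stigmasterol and -1.07 averaged over the treatments. Over all the other analyses run, the averaged value stayed between -1.14 and -0.93. Under BPA it was -0.45 without the 3 libraries with Alb and -1.23 without the 9 with Cdh16. Without the Cdh16 libraries, 9 WT animals had 0.977 to 2.15 CPM and 3 KO animals 0.596 to 0.741 CPM.

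In bulk tissue, fewer cells of a type and less RNA per cell cannot be told apart, which holds for every level given here. Within 1 Mb of Rsad2, 3 other genes were tested. Cmpk2, a mitochondrial nucleotide kinase that is induced with Rsad2 and lies next to it (chromosome 12, 26469204 to 26479835), fell in KO testes averaged over treatments by 0.39 ± 0.096 on the log2 scale (SE, edgeR, adjusted p = 0.0127). WT animals had 4.41 to 7.59 CPM of it and KO animals 4.11 to 5.41 CPM, and 5 of 9 KO animals were below all WT animals. The drop was called in each of the 21 fits that left out 1 animal. The log2 fold change of Cmpk2 was -0.32 (adjusted p = 0.0845) without the Alb libraries and -0.50 (0.183) without the Cdh16 libraries. Rnf144a, a ubiquitin ligase gene on the other side of Rsad2, also fell, by 0.35 ± 0.0524 (edgeR, adjusted p = 0.000193), while Sox11 was at 0.08 ± 0.0631 (adjusted p = 0.45). The 2 called of these 3 genes stand against 13.9% of all tested genes. Values of Rnf144a without the Alb or Cdh16 libraries are not given here. Whether the 3 genes that were lower in KO share a cause was not tested.

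Ifi35 encodes an interferon-induced leucine zipper protein of the cytosol (ENSMUSG00000010358, chromosome 11, 101448407 to 101458698). WT vehicle animal T66 had 16.7, T71 15.8, T79 14.95 and T81 16.5 CPM. WT BPA animal T60 had 13.1, T75 12.2, T61 12.5 and T74 10.7 CPM, and WT stigmasterol animal T78 had 12.9, T98 11.4, T118 10.5 and T119 13.3 CPM. All 8 treated WT animals were thus below the 4 WT vehicle animals, and both comparisons use the same vehicle animals (8.1% of all tested genes did not overlap for BPA and 3.44% for stigmasterol). The log2 fold change in WT was -0.40 for BPA and -0.41 for stigmasterol.

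In the KO testes the order of the Ifi35 levels differed. With vehicle, T1 had 12.1, T90 had 12.01 and T110 had 13.6 CPM, all below the WT vehicle animals (16.3% of all tested genes did not overlap between the genotypes in vehicle). With BPA, T25 had 13.3, T83 had 16.6 and T117 had 15.9 CPM, all above the WT BPA animals (10.4% did not overlap under BPA). With stigmasterol, T10 had 12.4, T15 had 13.0 and T93 had 12.1 CPM. The KO BPA and KO vehicle animals overlapped, because T25 was below T110. BPA against vehicle was 0.28 in KO on the log2 scale and -0.40 in WT, a difference of 0.68 that was not tested because the gene was picked from results. Without the Cdh16 libraries, which leaves T25 as the only KO BPA animal, the KO value was 0.14.

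Bst2 encodes tetherin, a membrane protein that holds budding virus particles at the cell surface. Averaged over treatments, Bst2 (ENSMUSG00000046718, chromosome 8, 71534264 to 71537437) rose in KO testes by a log2 fold change of 0.21 ± 0.0646 (SE, edgeR, adjusted p = 0.0354), from 26.3 ± 3.62 CPM in WT (SD, n = 12) to 30.4 ± 2.22 in KO (n = 9). It was the single one of the 6 tested genes to pass the threshold in any comparison. In this comparison 13.9% of all tested genes were called, and 1 of 6 is 16.7%.

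WT vehicle animal T66 had 35.3, T71 24.0, T79 28.9 and T81 27.3 CPM of Bst2, and among the KO vehicle animals T1 had 27.5, T90 had 27.6 and T110 had 30.3 CPM. These groups overlapped, with T66 the highest of all 21 animals. WT BPA animal T60 had 23.6, T75 27.99, T61 22.6 and T74 26.0 CPM against 31.4 (T25), 31.5 (T83) and 32.7 CPM (T117) in the KO BPA animals. WT stigmasterol animal T78 had 22.7, T98 27.5, T118 22.9 and T119 26.7 CPM against 27.7 (T10), 32.3 (T15) and 32.6 CPM (T93) in the KO stigmasterol animals. Under both treatments the KO animals were above all the WT animals of that treatment.

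By treatment the log2 fold change of Bst2 was -0.02 ± 0.112 (SE, edgeR, adjusted p = 0.938) in vehicle, 0.35 ± 0.112 (adjusted p = 0.25) under BPA and 0.31 ± 0.112 (adjusted p = 0.104) under stigmasterol. None of the 3 passed alone. The interaction of BPA with genotype was 0.37 ± 0.159 (adjusted p = 0.554) and that of stigmasterol 0.33 ± 0.159 (adjusted p = 0.555), so a dependence on treatment was not shown. The averaged call was kept in 7 of the 21 fits that left out 1 animal (adjusted p 0.0071 to 0.0829). It was lost without the Alb libraries (adjusted p = 0.0913), without the Cdh16 libraries (0.505) and with no filter on low counts (0.0547), where the log2 fold change was 0.22, 0.21 and 0.21. Of the 76 tested genes within 1 Mb of Bst2, 25 were called in the averaged comparison (32.9%, 18 higher and 7 lower). Around the other 7 genes of the group the share was 8.77% (Irf7) to 66.7% (Rsad2, 2 of 3 genes).

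Irf7, the transcription factor that drives the late phase of interferon production (ENSMUSG00000025498, chromosome 7, 141262706 to 141266481), ranged from 4.79 to 7.67 CPM over the 21 animals. Its lowest and its highest value were both in KO vehicle animals, T110 and T1. Averaged over treatments its log2 fold change, KO against WT, was 0.06 ± 0.0863 (edgeR, adjusted p = 0.716), with an interval of 2 SE from -0.12 to 0.23. WT levels had a mean of 5.94 ± 0.715 CPM (SD, n = 12) and KO levels 6.17 ± 0.868 CPM (n = 9).

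Isg15, the ubiquitin-like protein that is conjugated to other proteins in the response (ENSMUSG00000035692, chromosome 4, 156199424 to 156200818), had 0.701 to 1.86 CPM from 29 to 82 reads. KO stigmasterol animal T10 was the highest at 1.86 CPM, while T15 and T93 of the same group had 0.795 and 0.701 CPM, among the lowest. The log2 fold change of Isg15 averaged over treatments was 0.12 ± 0.166 (edgeR, adjusted p = 0.683).

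Ifit1, which binds viral RNA that lacks a proper cap, and Ifit3 lie near each other on chromosome 19 (Ifit1, ENSMUSG00000034459, 34640871 to 34650009, and Ifit3, ENSMUSG00000074896, 34583531 to 34588731). Ifit1 had 0.2 to 0.878 CPM from 8 to 40 reads, and Ifit3 0.291 to 1.21 CPM from 13 to 55 reads. The highest value of both was in WT vehicle animal T66. Averaged over treatments the log2 fold change, KO against WT, was -0.24 ± 0.229 for Ifit1 (edgeR, adjusted p = 0.525) and 0.01 ± 0.211 for Ifit3 (adjusted p = 0.989). At this depth the interval of 2 SE for Ifit1 ran from -0.70 to 0.21, so moderate changes in either gene were not detectable. Both have close copies in the mouse genome, and reads shared with them make the values uncertain.

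Oasl2, a relative of the oligoadenylate synthetases that sense double-stranded RNA (ENSMUSG00000029561, chromosome 5, 114896936 to 114912234), had 14.2 to 27.5 CPM. In the WT vehicle group T66 and T71 had 27.3 and 24.1 CPM, while T79 and T81 had 15.2 and 14.2 CPM, the 2 lowest values of all. The animals of the other 5 groups lay between 19.6 and 27.5 CPM. The log2 fold change of Oasl2 averaged over treatments was 0.04 ± 0.108 (edgeR, adjusted p = 0.827).

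For none of the 6 tested genes did BPA or stigmasterol pass the threshold against vehicle in either genotype. The largest treatment change in WT was that of Ifit3 under BPA, -0.52 ± 0.343 (edgeR, adjusted p = 0.438). Of the 6 genes, 0 had an unadjusted p under 0.05 in any of these 4 comparisons by edgeR, and DESeq2 and limma-voom called 0. In the authors' deposited table, the adjusted p of the 6 genes in those 4 comparisons, 24 values, was 0.48 to 1 and the log2 values were -0.52 to 0.17. As a description by ranges alone, 1 of the 6 (Bst2) did not overlap between KO and WT under BPA, where 10.4% of all tested genes did not, and 1 of 6 (Bst2) under stigmasterol (17%). In vehicle 0 of 6 did not overlap (16.3%). Between treatment and vehicle 1 of 6 did not overlap for BPA in KO (Bst2, 11.1% of all tested genes) and 0 of 6 for BPA in WT (8.1%), stigmasterol in WT (3.44%) and stigmasterol in KO (9.59%).

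**Figure D2:**
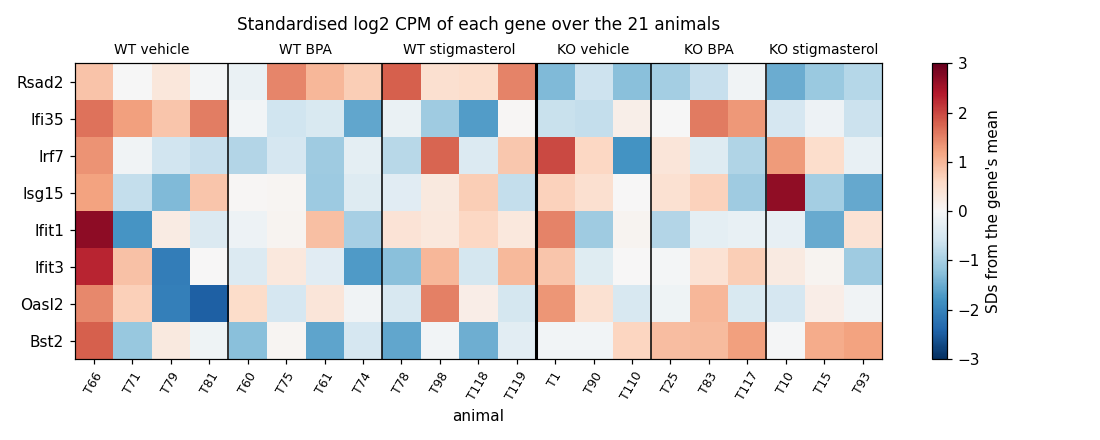
Standardised log2 CPM of the 8 genes (rows) in the 21 animals (columns, grouped by genotype and treatment), in SDs from each gene's mean, red above and blue below. WT vehicle animal T66 is above the mean for all 8 genes, the row of Rsad2 is blue or white in all KO animals, and few other columns have 1 colour.

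The 8 genes varied only loosely together. Within groups, the Pearson correlation of their log2 CPM over the 21 animals had a median of 0.24 over the 28 pairs, and 10 pairs were above 0.3. The highest were Ifit3 with Oasl2 (0.6), Irf7 with Oasl2 (0.58) and Irf7 with Ifit3 (0.54). Rsad2 with Isg15 was the lowest, at -0.33. The 21 points share library depth and tissue make-up, and the correlations are given as descriptions. With WT vehicle animal T66 left out of the correlations, but not out of its group's mean, the median was 0.05. The mean of the standardised levels of the 8 genes was 1.66 in T66, and the next highest animals were KO vehicle T1 at 0.53 and WT stigmasterol T98 at 0.52. T66 had 1.78 CPM of Alb, 0.307 CPM of Cdh16 and the second highest summed level of macrophage markers (189 CPM). The part of these in its high values was not tested.

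Among the genes with at least 1 CPM, those whose log2 CPM followed the mean of the 8 genes most closely over the 21 animals were Rab3gap1 (Pearson r 0.8), Fbxl12 (0.75), Mtcp1 (0.74), B4galt7 (0.72), Ccdc28a (0.72), Spa17 (0.71), Dok3 (0.7) and Anxa9 (0.7). Leaving out T66 and T1, the 2 animals farthest from the median, lowered these values to 0.42 (Mtcp1) to 0.71 (Rab3gap1, Spa17). None of these 8 is on the interferon pathway lists below.

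The wider pathway was described with 7 lists of textbook genes, 134 genes in all, of which 121 were in the table and 109 were tested. Together with the 6 tested genes above, 115 genes were counted. Averaged over treatments, 18 of the 115 passed the threshold between KO and WT (15.7%, 6 higher and 12 lower). Of all 20254 genes tested, 13.9% passed (1388 higher and 1432 lower). The median log2 fold change was -0.02 over the 115 genes and 0.01 over all tested genes. In vehicle 3 of 115 passed (2.61%, against 2.92% of all tested genes) and under stigmasterol 8 (6.96%, against 7.21%). Under BPA 0 of 115 passed, where 0.859% of all tested genes did. There 10 of the 115 had an unadjusted p under 0.05, a share not counted over all tested genes. DESeq2 called 2, Ifi44l and Trim25 (1.74%, against 1.49% of all genes it tested), and limma-voom 0. The shares were close to those of all genes in each comparison. The counts on average, under stigmasterol and by DESeq2 under BPA include Ifi44l, which passed the read filter only through KO libraries.

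**Figure D3:**
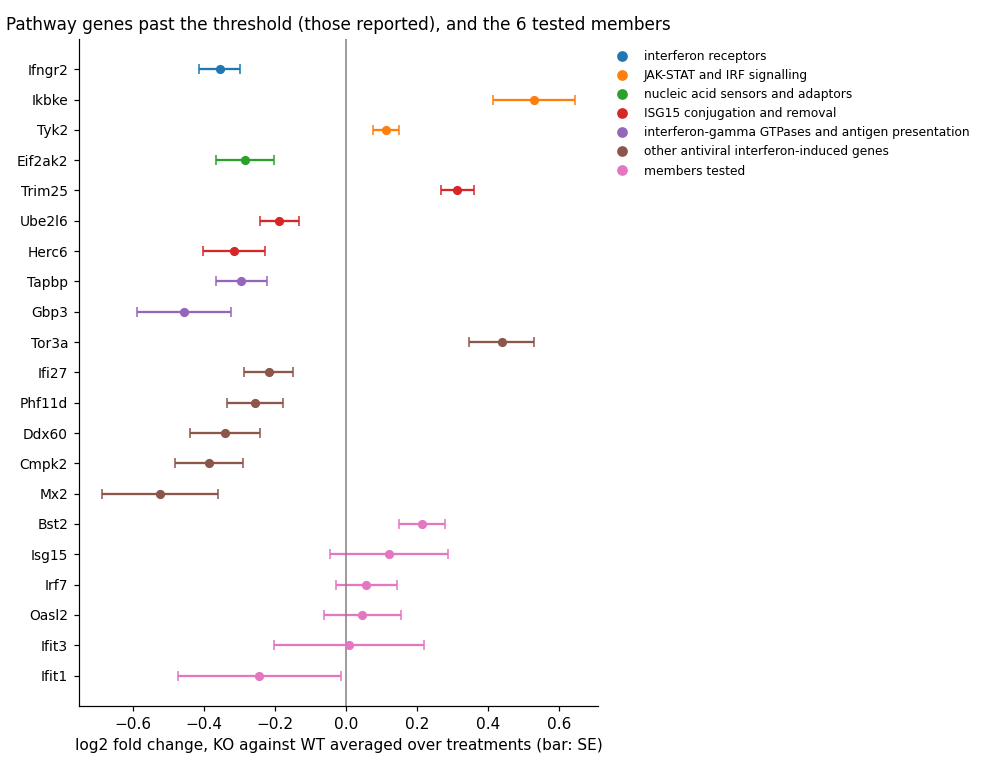
Log2 fold change, KO against WT averaged over treatments (points, with SE as bars), for pathway genes that passed the threshold and the 6 tested genes of the group, coloured by list. Ifi44l is left out because WT libraries had 0 or 1 read. Of the 15 pathway genes drawn, 11 are below 0, and Bst2 is at 0.21. Of all genes called in this comparison, 1388 were higher and 1432 lower.

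The ligands were at the limit of detection. Of 21 listed interferons 11 were in the table, none had enough reads to be tested, and no library had more than 5 reads of any of them. Ifnk, an interferon of epithelia, had 29 reads over all 21 libraries, and Ifng, made by T and NK cells, had 23. A count of 3 reads corresponded to 0.0484 to 0.0884 CPM.

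Of the 6 receptor genes, Ifngr2, a chain of the interferon-gamma receptor, fell in KO testes. Its levels were 143 to 204 CPM in the 12 WT and 116 to 141 CPM in the 9 KO animals, without overlap. The share of all tested genes that separate all WT from all KO animals was not counted. Within treatments, 16.3% (vehicle), 10.4% (BPA) and 17% (stigmasterol) of all tested genes did not overlap between the genotypes. The log2 fold change of Ifngr2 was -0.42 ± 0.101 in vehicle (edgeR, adjusted p = 0.029), -0.39 ± 0.101 under stigmasterol (0.0242) and -0.36 ± 0.0583 averaged over treatments (adjusted p = 0.00051). The other 5 receptor genes did not pass, and the list's median was -0.11 in the averaged comparison. Without the Cdh16 libraries the averaged change of Ifngr2 was -0.35 with an adjusted p of 0.185, and the changes in vehicle and under stigmasterol were -0.44 (0.963) and -0.27 (0.718).

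Among the 16 signalling genes, Ikbke, a kinase that activates IRF3 and IRF7, rose by 0.53 ± 0.115 (SE, edgeR, adjusted p = 0.0051). Tyk2, a Janus kinase, rose by 0.11 ± 0.0365 (edgeR, adjusted p = 0.046) and in vehicle by 0.24 ± 0.0631 (0.0468). The Tyk2 calls were lost in most other analyses. Without the Cdh16 libraries Ikbke was at 0.30 (adjusted p = 0.484) and Tyk2 at 0.15 (0.28), and at 0.29 (0.712) in vehicle. Without the Alb libraries Tyk2 was at 0.10 (adjusted p = 0.239) and in vehicle at 0.23 (0.115). Among 15 nucleic acid sensors and adaptors, Eif2ak2, the kinase PKR that stops translation on double-stranded RNA, fell by 0.28 ± 0.0818 (adjusted p = 0.0267) and was the only one called. Eif2ak2 was at -0.25 (adjusted p = 0.122) without the Alb libraries and -0.36 (0.21) without the Cdh16 libraries.

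Of 5 genes of ISG15 conjugation and removal, Trim25, a ubiquitin and ISG15 ligase that activates the RNA sensor RIG-I, rose by 0.31 ± 0.0477 (edgeR, adjusted p = 0.000238), WT animals having 86.3 to 111 CPM and KO animals 105 to 127 CPM. Trim25 passed in each of the 6 other analyses of the averaged comparison and in all 21 fits that left out 1 animal. Under stigmasterol Trim25 rose by 0.32 ± 0.0825 (edgeR, adjusted p = 0.0255). There it was at 0.31 (adjusted p = 0.053) without the Alb libraries and at 0.40 without the Cdh16 libraries. Averaged over treatments, Herc6, the main mouse ISG15 ligase, fell by 0.32 ± 0.0879 (adjusted p = 0.0232) and Ube2l6, its conjugating enzyme, by 0.19 ± 0.0547 (adjusted p = 0.0288). Uba7, the activating enzyme, rose under stigmasterol (0.60 ± 0.168, adjusted p = 0.0367), and was at 0.31 (adjusted p = 0.763) without the Cdh16 libraries. Without those libraries Herc6 was at -0.40 (0.344) and Ube2l6 at -0.21 (0.466), and without the Alb libraries at -0.26 (0.133) and -0.18 (0.0971). The called genes of this chain thus went in both directions.

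Of 24 interferon-gamma GTPases and antigen presentation genes, Gbp3, a guanylate-binding GTPase, fell by 0.46 ± 0.131 (edgeR, adjusted p = 0.0268) averaged over treatments. Tapbp, which loads peptides on MHC class I, fell by 0.29 ± 0.0706 (adjusted p = 0.00997), from 223 ± 36.7 CPM in WT (SD, n = 12) to 181 ± 11.9 in KO (n = 9). Without the Cdh16 libraries Gbp3 was at -0.64 (adjusted p = 0.204) and Tapbp at -0.33 (0.351), and without the Alb libraries Gbp3 was at -0.40 (0.126). The list's median was 0.00. Gbp3 belongs to a family with close copies, which makes its reads uncertain.

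Of 46 other antiviral genes, 8 passed in the averaged comparison (17.4%, against 13.9% of all tested genes), 3 higher and 5 lower, with Trim25 counted here too. Ifi44l is among the 3 higher. Besides Cmpk2, the lower ones were Mx2 (a dynamin-like GTPase, annotated as a polymorphic pseudogene in mouse; -0.52 ± 0.163, edgeR, adjusted p = 0.0392), Ddx60 (a helicase that aids RNA sensing; -0.34 ± 0.0994, 0.029), Phf11d (-0.26 ± 0.0785, 0.0365) and Ifi27 (-0.22 ± 0.0694, 0.0432). Of the 21 fits that left out 1 animal, 7 kept the averaged call of Mx2, 6 that of Ifi27, 10 that of Phf11d and 18 that of Ddx60, and Mx2 was called in 2 of the 6 other analyses. Without the Cdh16 libraries these genes were at -0.57 (Mx2, adjusted p = 0.439), -0.33 (Ddx60, 0.391), -0.37 (Phf11d, 0.291) and -0.16 (Ifi27, 0.612), and without the Alb libraries at -0.47 (0.162), -0.26 (0.152), -0.25 (0.131) and -0.22 (0.108). Ifi27, a small mitochondrial protein gene, also passed in vehicle at -0.55 ± 0.121 (adjusted p = 0.0176), where the 4 WT animals had 96.7 to 140 CPM and the 3 KO animals 83.7 to 87.4 CPM (-0.49, adjusted p = 0.985, without the Cdh16 libraries). Tor3a, an interferon-responsive ATPase, rose by 0.44 ± 0.0915 (adjusted p = 0.00401; 0.47, adjusted p = 0.0625, without the Cdh16 libraries). Ifitm1, a membrane protein that blocks virus entry, rose under stigmasterol (0.58 ± 0.149, edgeR, adjusted p = 0.0241; 0.45, adjusted p = 0.543, without the Cdh16 libraries). Ifi44l was called as higher in KO under stigmasterol and on average. WT libraries had 0 or 1 read of it, so it passed the read filter only through the KO libraries. It stays in the counts, which are given as descriptions, but its adjusted p is not used here. It had 4 reads in all 12 WT libraries together and 106 in the 9 KO libraries, of which 48 were in 1 KO stigmasterol library, so no fold is given. It had too few reads to be tested without the Cdh16 libraries.

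For the treatments, 0 of 115 genes passed for BPA in WT (0% of all tested genes called), stigmasterol in WT (0.00494%), BPA in KO (0.0148%) and stigmasterol in KO (0%). By the same edgeR test, 11, 7, 3 and 5 of the 115 had an unadjusted p under 0.05. The share of all tested genes under that value was not counted, here or for the interactions. These counts are therefore not read as high or low. For BPA in WT, DESeq2 called 2 of the 104 genes it gave an adjusted p (1.92%), against 6.13% of all genes. These were Ifi27 and Ube2l6, both lower. DESeq2 called 0 in the other 3, but for stigmasterol in WT it gave an adjusted p to only 26 of the 115. Limma-voom called 0 in each. Without WT vehicle animal T79, 4 genes passed for BPA in WT, all lower, and the share of all genes called in that fit was not counted. For the interaction of BPA with genotype (0.0148% of all tested genes) and of stigmasterol with genotype (0.00987%), 0 of 115 passed, 8 had an unadjusted p under 0.05 in each, and DESeq2 and limma-voom called 0. In the stigmasterol interaction DESeq2 gave an adjusted p to only 75 of the 115.

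The genotype counts depended on the libraries. Without the 9 libraries with Cdh16, which leaves 1 KO animal per treatment that is assumed to vary as the other groups do, 0 of the 114 interferon genes tested there passed in vehicle (0.269% of all tested genes did), 0 under stigmasterol (0.408%) and 1, Trim25, on average (0.877%, against 1.23% of all tested genes). Without the 3 libraries with Alb, 7 of 115 passed on average (6.09%, against 7.46%). Calls over all genes thus fell in the same fits.

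Several cell type markers differed between the genotypes as well. The summed level of 10 T and NK cell markers was 5.53 to 8.77 CPM in the 12 WT and 8.83 to 11.3 CPM in the 9 KO animals, without overlap. How often sums of 10 other genes separate the genotypes was not counted. Of the 9 that were tested 5 were called in the averaged comparison (13.9% of all tested genes were), all higher in KO: Cd3d, Cd3g and Trac of the T cell receptor complex, and Klrb1c and Nkg7 of NK cells. Each of the 10 genes had reads in both genotypes. Of 14 macrophage markers, Aif1 rose (0.42 ± 0.129, edgeR, adjusted p = 0.0353) and Cd163 fell (-0.45 ± 0.127, adjusted p = 0.0246), and the summed levels overlapped (124 to 189 CPM in WT, 114 to 192 CPM in KO). The defining macrophage genes Adgre1 (5.73 ± 1.47 CPM in WT, 6.25 ± 1.47 in KO; SD, n = 12 and n = 9) and Csf1r (21.2 ± 2.66 and 20.8 ± 3.14 CPM) differed by less than 1 SD.

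The summed level of 8 epididymal and efferent duct markers was 56.0 to 144 CPM over the WT animals and 102 to 554 CPM over the KO animals, with 7 of 8 called, all higher. Of 5 fat cell markers 4 were called, all higher, with a median log2 fold change of 2.52, and their summed level was 9.28 to 20.6 CPM over the WT animals and 10.3 to 93.4 CPM over the KO animals. Sertoli cell markers summed to 3076 to 5409 CPM over the WT animals and 2877 to 3468 CPM over the KO animals, with 6 of 10 called, all lower. Each of these counts stands against the same 13.9% of all tested genes. Bst2 is itself a usual marker of plasmacytoid dendritic cells, and the summed level of 5 other markers of these cells was 86.0 to 121 CPM over the WT animals and 79.6 to 107 CPM over the KO animals. The part of these cell types in the interferon gene values was not tested.

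**Figure D4:**
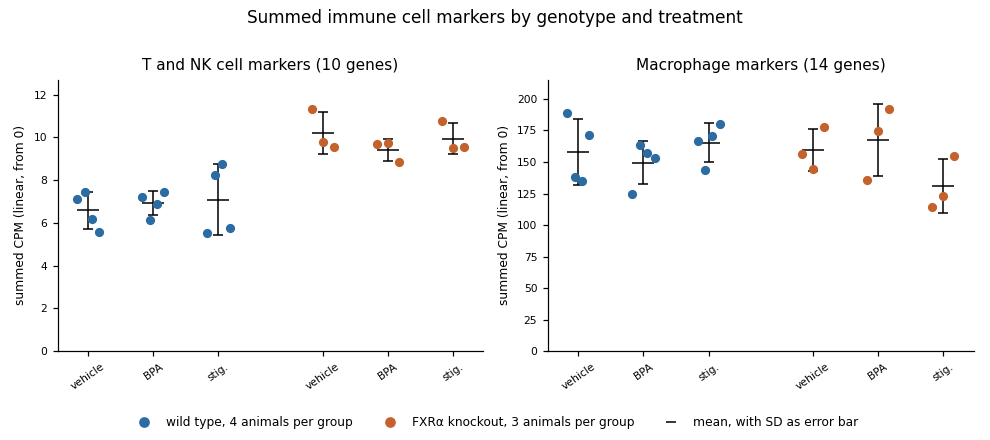
Summed CPM (linear axes from 0) of 10 T and NK cell markers and of 14 macrophage markers in each animal, by genotype and treatment, with the group mean and SD in black. The KO animals lie above all WT animals for the T and NK cell markers (8.83 to 11.3 against 5.53 to 8.77 CPM), while the macrophage sums overlap.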

How the data were processed

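The deposited table holds whole-number raw read counts per gene, which the authors made from poly-A selected, unstranded libraries (per the labels' protocols and the file headers). Reads from overlapping antisense genes are therefore not told apart. The authors also deposited a signal per kb of gene length, and, per the file headers, log2 ratios, p-values and adjusted p-values for 4 treatment comparisons. The submitters' processing notes name CASAVA 1.8.2, TopHat2 2.0.10, Bowtie, Bowtie2 2.1.0 and mm10; no read counter is named there. A further 21 normalized columns of the same samples were not used.

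The test was that of edgeR 4.0.16 (R 4.3.3), with TMM, filterByExpr (minimum count 10, minimum total count 15), 1 mean for each of 6 groups, quasi-likelihood tests of 10 contrasts, Benjamini-Hochberg adjustment over 20254 genes, threshold 0.05. Tests were two-sided. SE is the size of the log2 fold change over the root of its F value. Levels are CPM after TMM, log2 CPM used a prior count of 2, and the biological coefficient of variation between replicates was 19.2%. The fit was tested on simulated data. DESeq2 1.42.0, limma-voom (limma 3.58.1), other size factors, no filter, the 2 groups alone, and leaving out libraries were tried.

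The 8 genes and the lists were chosen with earlier results of these data known. Named pathway genes are those past the threshold, at most 6 per list and comparison by smallest p. One gene that this rule took is counted but not reported here. The genes most like the group are the 8 with the highest Pearson r to its mean standardised log2 CPM.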

Additional observations from a re-analysis of the deposited data

Results flagged for a closer look

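For Ifi35 under BPA, all 4 WT BPA animals were below the mean of the WT vehicle animals, and all 3 KO BPA animals were above the mean of the KO vehicle animals. The difference between the fold changes was 0.68 on the log2 scale. The KO BPA and KO vehicle animals overlapped, and the KO value, 0.28, was 0.14 without the Cdh16 libraries. The difference was not tested, because Ifi35 was picked from results of these data.

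For the 8 genes, the highest and the lowest animal of each WT group of 4 were also compared with the rest of their group by Dixon's ratio (critical value 0.829). In 0 of these 24 groups did an animal stand apart by this measure, where chance would give about 1 in 20. Groups of 3 KO animals are too small for it.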

How the results depend on the processing

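The number of the 115 interferon genes called in vehicle, 3, was 11 with DESeq2 (9.57%, against 6.98% of all genes it tested). With the 2 groups fitted alone it was 0, where 0.971% of all tested genes were called. Counts without the Cdh16 libraries are given above with their shares. Leaving out 1 animal gave 0 to 8 (8 without WT vehicle T79, 1 without WT T81, KO T1 or KO T90, 0 without KO T110). Under stigmasterol, 8 became 0 with the 2 groups alone, where 1.69% of all tested genes were called. The 8 became 2 to 9 without 1 animal (2 without WT T119 or KO T93, 3 without WT T118, 4 without KO T10, 5 without WT T98 or KO T15). The averaged 18 became 7 without the Alb libraries (6.09%, against 7.46% of all tested genes) and 12 to 18 without 1 animal. Under BPA, 0 became 2 with DESeq2, Ifi44l and Trim25 (1.74%, against 1.49% of all genes it tested), and 0 to 1 without 1 animal. BPA in WT went from 0 to 2 with DESeq2 (1.92%, against 6.13% of all genes it tested) and 0 to 4 without 1 animal. The other treatment and interaction counts stayed at 0 in every analysis run. Why the counts moved was not tested. The share of all genes called was not counted in the fits that left out 1 animal, so their counts have none beside them. No called gene reversed its direction in any analysis run. Averaged over treatments, Trim25 kept its call wherever it was tested. The calls of Ifi44l are not weighed, because it passed the read filter only through KO libraries. Without the Cdh16 libraries the other called genes lost their call. Their fold changes were larger for some (Gbp3 -0.46 to -0.64, Phf11d -0.26 to -0.37) and smaller for others (Ikbke 0.53 to 0.30). Rsad2 under BPA, with no test, moved from -0.90 to -0.45 without the Alb libraries and to -1.23 without the Cdh16 libraries. No paired analysis was possible because the animals' identifiers are not shared between groups. Low reads limit Rsad2, Isg15, Ifit1 and Ifit3.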
